A study of Mus musculus with 12 samples.

Results

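The genes described here encode the GABA-A receptor subunits and the glutamate receptors, the ion channels and G protein-coupled receptors through which the transmitters GABA and glutamate act on a cell. They were taken as all probes whose platform gene symbol begins with Gabra, Gabrb, Gabrg or Gabrr and a digit, is Gabrd, Gabre, Gabrp or Gabrq, or begins with Gria, Grid, Grik, Grin or Grm and a digit. The rule found 39 genes among the 19505 with a symbol, each with 1 probe. They comprise 16 GABA-A subunits, 4 AMPA receptor subunits, 5 kainate receptor subunits, 6 NMDA receptor subunits, 6 metabotropic glutamate receptors and the delta subunit Grid1. The remaining member, Grid2ip, matches by its name and encodes a scaffold protein of synapses, not a receptor.

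The arrays came from mouse trigeminal ganglion (TG) neurons, which carry sensation from the head, isolated into primary culture on laminin-coated coverslips and transfected with a microRNA (miRNA). There were 4 groups of 3 arrays, which received scramble miRNAs, miR-21, miR-34a or miR-324, and the design set each miRNA against scramble. All groups, scramble included, were transfected, and the labels give no untransfected culture, strain, age, dose or time. Nothing in the labels ties the 3 arrays of a group to different cultures or different mice. Their p-values therefore cover the spread between these samples only, and an unknown part of it may be technical. A suffix in the labels is common to scramble 1, scramble 2, miR-34a 1 and miR-34a 2 (suffix A) and another to miR-324 2 and scramble 3 (suffix B); the remaining 6 have no suffix.

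GABA-A receptors are chloride channels built from subunits of several families, and in primary sensory neurons, whose chloride is high, their opening depolarises the cell and dampens transmitter release from its central terminals. AMPA, kainate and NMDA receptors are cation channels opened by glutamate, the transmitter that these neurons themselves release, and kainate receptors with the GluK1 subunit (Grik1) are a known feature of small sensory neurons. Metabotropic glutamate receptors signal through G proteins, and those of group III, such as Grm4 and Grm7, act mainly on nerve terminals.

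The mature sequences of the transfected miRNAs are shown because the 3 treatments differ by them. The labels name no arm, so the guide arm by common usage is given for miR-21 and miR-34a and both arms for miR-324, from RefSeq (GRCm38.p6), 5′ to 3′, with the seed (bases 2 to 8), which pairs with target transcripts, in capitals. They are encoded at chr11:86584120-86584141 (minus strand), chr4:150068473-150068494, chr11:70012060-70012082 and chr11:70012095-70012114 (plus strand), in the order shown. No 2 of the 4 share a seed.
miR-21a-5p: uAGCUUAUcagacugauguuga
miR-34a-5p: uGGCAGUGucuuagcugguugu
miR-324-5p: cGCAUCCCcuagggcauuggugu
miR-324-3p: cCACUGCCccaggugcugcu

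Levels are the deposited log2 signals, on which a difference of 1 is a factor of 2. Signals of different probes depend on the probes, so levels were compared between arrays and not between genes. A gene was counted as expressed where at least 1 of the 12 arrays stood at 5 or higher. By this measure 24 of the 39 genes (61.5%) were expressed and 15 were under 5 in every array, against 74.6% of all genes. For comparison, of the 1410 olfactory and vomeronasal receptor genes, which sensory neurons of a ganglion are not known for, 32.1% also reached 5 in some array, and their median per array was 3.51 to 4.12. At 5 or higher in all 12 arrays were 9 receptor genes (23.1%), against 53.2% of all genes and 1.77% of the olfactory and vomeronasal receptor genes. These 9 were the GABA-A subunits Gabra2 and Gabrb2, the AMPA subunit Gria3, the kainate subunits Grik3, Grik4 and Grik5, the NMDA subunit Grin3b and the metabotropic receptors Grm4 and Grm7. The genes just inside the limit were Grid1, Gabrr1 and Grm5, whose highest arrays stood at 5.07, 5.08 and 5.13. Just outside it were Gabrb1, Gabre and Gabrr2, at 4.95, 4.85 and 4.70.

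**Figure D1:**
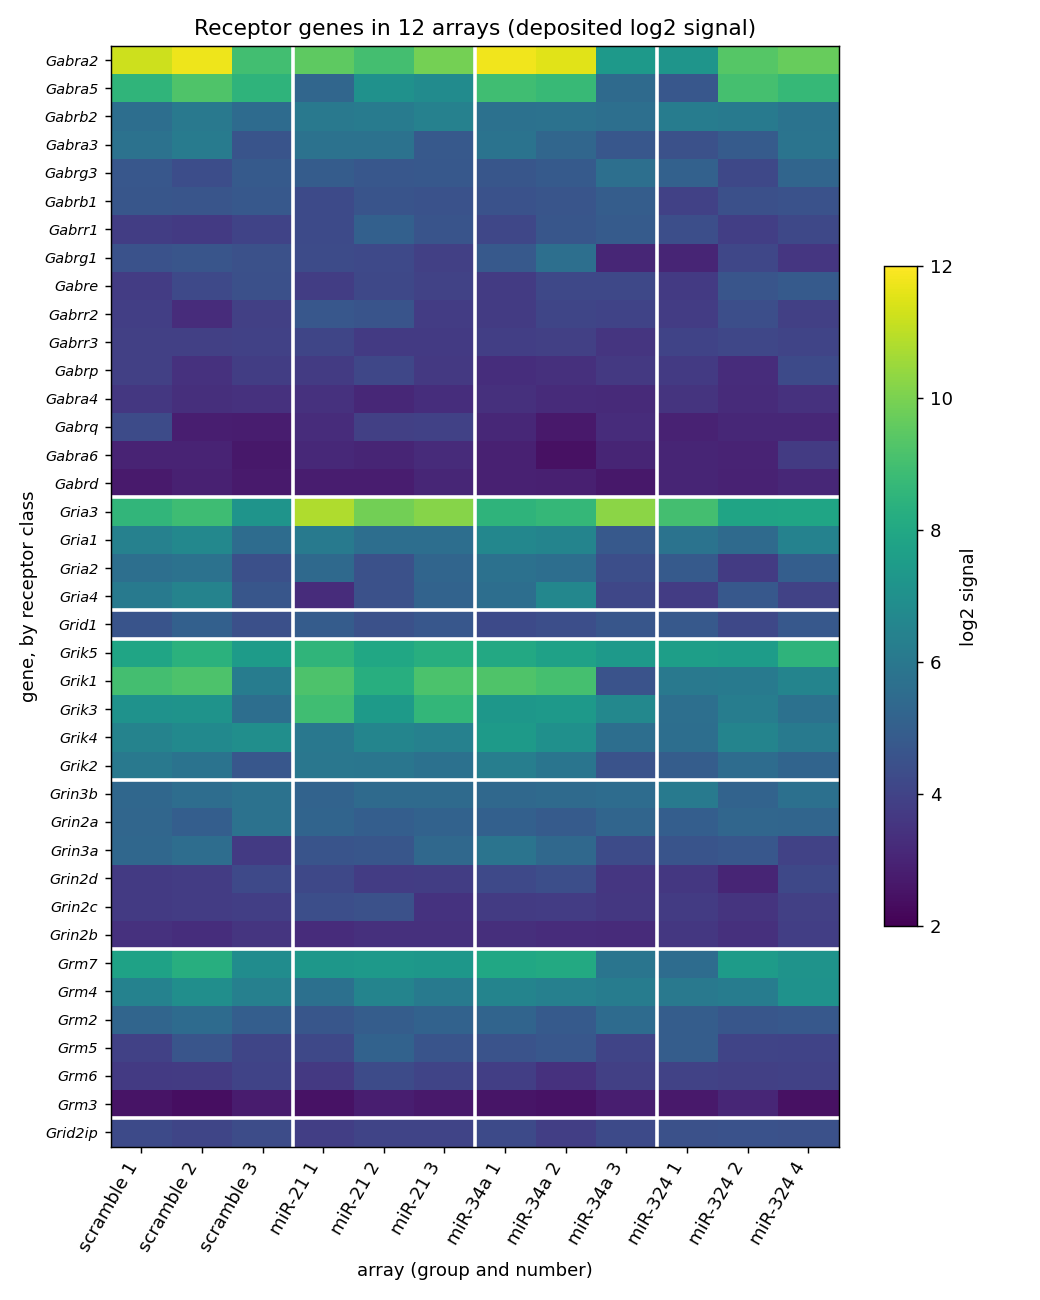
Deposited log2 signal (colour) of the 39 genes (rows, by receptor class) in the 12 arrays (columns, by group). Gabra2, Grik1 and Gabra5 change most from array to array, and Grm3, Gabrd and Gabra4 stay under 5 in every array.

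Marker lists of the cells of a ganglion were read on the same arrays. All 25 measured pan-neuronal markers reached 5 in some array, and so did all 17 measured sensory neuron markers. Every measured endothelial and macrophage marker and 74.6% of all genes did so too, so this limit does not single out neurons. The median of the sensory neuron markers was 6.93 to 11.41 over the arrays. The pan-neuronal median was lowest in miR-34a 3 (9.18), miR-324 1 (9.49) and the miR-21 arrays (10.83 to 11.25), with 11.79 to 13.42 on the other 7 arrays. The median of the 10 measured of 13 myelinating Schwann cell markers was highest in the miR-21 arrays (10.44 to 11.00) and next in miR-34a 3 (8.66), with 5.20 to 7.47 on the other 8. The median of the 15 measured of 16 macrophage markers was 9.13 to 9.63 in the 4 arrays of suffix A and 4.66 to 5.73 in the others. That of the 11 measured of 12 endothelial markers was highest in miR-324 1 (13.95) and miR-34a 3 (13.29), the other 10 lying between 9.59 and 12.37. Satellite glia, fibroblast and mural cell markers had medians of 7.08 to 8.92, 7.74 to 11.46 and 5.57 to 6.89. The pituitary list had medians of 3.90 to 5.48, but its member Prl, which encodes prolactin, was at least 14.26 in scramble 3 and in each miR-324 array and at most 4.83 in the remaining 8. The arrays miR-34a 3, miR-324 1 and scramble 3 thus stood apart from the others of their groups. In such mixed samples fewer cells of a type and less RNA per cell cannot be told apart.

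Of the 16 GABA-A subunit genes 7 were expressed, namely Gabra2, Gabra3, Gabra5, Gabrb2, Gabrg1, Gabrg3 and Gabrr1. Gabra2, an alpha subunit of synaptic receptors, stood at 11.25, 11.76 and 8.96 in scramble 1, 2 and 3 and at 9.53, 9.00 and 9.90 in the miR-21 arrays. It stood at 11.79, 11.56 and 7.39 in miR-34a 1, 2 and 3 and at 7.20, 9.36 and 9.69 in miR-324 1, 2 and 4. The 4 arrays of suffix A were thus the highest, miR-34a 3 and miR-324 1 the lowest, and every miRNA group overlapped scramble. Gabra5, the alpha subunit of many receptors outside synapses, stood at 8.53, 9.25 and 8.52 in scramble, 5.32, 7.05 and 6.82 after miR-21, 8.95, 8.74 and 5.47 after miR-34a and 4.72, 9.05 and 8.70 in miR-324 1, 2 and 4. Its low arrays were the 3 of miR-21 with miR-34a 3 and miR-324 1, the 5 arrays with the lowest pan-neuronal medians. Gabrb2, a beta subunit that takes part in the GABA binding site, varied little, from 5.51 to 6.38 over the 12 arrays. Gabra3 lay between 4.49 and 6.15 and Gabrg3 between 4.18 and 5.67.

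The other expressed GABA-A genes passed the limit in a single array each. Gabrg1, a gamma subunit, stood at 4.50, 4.63 and 4.47 in scramble and 4.27, 4.19 and 3.89 after miR-21. It stood at 4.79, 5.66 and 3.06 after miR-34a and 3.04, 4.14 and 3.57 in miR-324 1, 2 and 4. It was lowest in miR-34a 3 and miR-324 1, as Gabra2 was. Gabrr1, a rho subunit of the kind found in retina, reached 5.08 in miR-21 2 and lay between 3.69 and 4.86 in the other 11 arrays. Under 5 throughout were Gabra4, Gabra6, Gabrb1, Gabrd, Gabre, Gabrp, Gabrq, Gabrr2 and Gabrr3. Among them Gabrd had the narrowest range, 2.65 to 3.11, and Gabrp and Gabre, subunits better known outside the nervous system or in a few brain regions, lay between 3.28 and 4.23 and between 3.70 and 4.85.

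GABA-A genes lie in clusters. By the gene order of RefSeq (GRCm38.p6) Gabrg1, Gabra2, Gabra4 and Gabrb1 lie together on chromosome 5, 1 other protein-coding gene separating Gabra2 from Gabra4. Of these 4 only Gabra2 was at 5 or higher in more than 1 array. Gabra4 lay between 3.10 and 3.64 in the same arrays and Gabrb1 between 3.93 and 4.95. On chromosome 7 Gabrg3 and Gabra5 are adjacent, and on the X chromosome Gabra3 and Gabrq are adjacent, with Gabrq between 2.69 and 4.30. Some neighbours differed in which arrays were low: Gabra5 was 4.72 in miR-324 1, where Gabrg3 stood at 5.11. Others did not: Gabrg1 and Gabra2 were both lowest in miR-34a 3 (3.06 and 7.39) and miR-324 1 (3.04 and 7.20).

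The promoters of Gabra2, Gabra5 and the kainate subunit Grik3 are shown because these genes were among the most variable between arrays or groups and have an entry in RefSeq (GRCm38.p6). Each covers 250 bases before and 50 after the gene's start. Capitals mark matches on either strand to the letters TATAAA (the TATA box), to the letters CCAAT (the CCAAT box) and to the letters GGGCGG (the GC box). None of these motifs overlaps another in the printed sequences.
Gabra2, chr5:71095800-71096099, minus strand: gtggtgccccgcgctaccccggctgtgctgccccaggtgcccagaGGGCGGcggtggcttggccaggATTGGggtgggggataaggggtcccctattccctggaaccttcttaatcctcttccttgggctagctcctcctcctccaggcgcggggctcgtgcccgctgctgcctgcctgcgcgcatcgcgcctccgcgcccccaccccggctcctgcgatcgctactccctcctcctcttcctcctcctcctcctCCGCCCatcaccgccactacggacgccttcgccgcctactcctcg
Gabra5, chr7:57510010-57510309, minus strand: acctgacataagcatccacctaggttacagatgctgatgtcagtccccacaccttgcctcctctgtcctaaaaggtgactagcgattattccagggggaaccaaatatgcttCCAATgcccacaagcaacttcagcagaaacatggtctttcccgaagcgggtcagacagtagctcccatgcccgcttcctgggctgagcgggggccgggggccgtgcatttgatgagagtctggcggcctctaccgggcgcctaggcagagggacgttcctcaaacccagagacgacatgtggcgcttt
Grik3, chr4:125490446-125490745, plus strand: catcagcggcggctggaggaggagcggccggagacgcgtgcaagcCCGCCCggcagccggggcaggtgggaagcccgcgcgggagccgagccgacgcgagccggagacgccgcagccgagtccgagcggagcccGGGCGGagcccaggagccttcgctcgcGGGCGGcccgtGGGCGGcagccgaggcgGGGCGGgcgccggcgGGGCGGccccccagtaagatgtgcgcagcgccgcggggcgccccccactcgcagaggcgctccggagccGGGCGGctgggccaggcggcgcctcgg

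The Grik3 promoter held 7 matches to GGGCGG and 50 CG dinucleotides, the Gabra2 promoter 2 and 25, and the Gabra5 promoter 0 and 13. Gabra2 and Gabra5 each held 1 match to CCAAT, and none of the 3 held TATAAA. Of the 35 promoters listed for 29 of the 39 genes, 17 (48.6%) held GGGCGG, 15 (42.9%) CCAAT and 4 (11.4%) TATAAA. Over all 32851 promoters of this length the shares were 35.7%, 37.4% and 13.6%. The median number of CG dinucleotides was 12.0 in the promoters of members and 7.0 over all promoters. It was also 12.0 both for the members expressed here and for those under 5 in every array.

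All 4 AMPA receptor subunits were expressed. Gria3, the GluA3 subunit, stood at 8.58, 8.88 and 7.16 in scramble, 10.80, 9.88 and 10.17 after miR-21, 8.51, 8.66 and 10.27 after miR-34a and 9.00, 7.84 and 7.88 in miR-324 1, 2 and 4. Its 4 highest arrays were the 3 of miR-21 and miR-34a 3, which also had the 4 highest medians of Schwann cell markers. Gria4, the GluA4 subunit of fast-gating receptors, stood at 6.13, 6.47 and 4.68 in scramble, 3.26, 4.49 and 5.20 after miR-21, 5.63, 6.61 and 4.11 after miR-34a and 3.78, 4.75 and 3.97 in miR-324 1, 2 and 4. Its 4 highest arrays were those of suffix A. Gria1 lay between 4.81 and 6.65 and Gria2, whose edited transcript makes the channel calcium-impermeable, between 3.74 and 5.78. The 4 arrays of suffix A were the highest for Gria2 and, with miR-324 4, for Gria1. The delta subunit Grid1 reached 5 in scramble 2 (5.07) and lay between 4.16 and 4.92 elsewhere.

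All 5 kainate receptor subunits were expressed. Grik1 stood at 9.01, 9.20 and 6.21 in scramble, 9.20, 8.26 and 9.17 after miR-21, 9.25, 9.05 and 4.55 after miR-34a and 6.04, 6.07 and 6.51 in miR-324 1, 2 and 4. It had the widest range of any member, 4.70 over the 12 arrays, and all of that range fell within the miR-34a group. Grik3, the GluK3 subunit, stood at 7.11, 7.14 and 5.63 in scramble, 8.94, 7.44 and 8.62 after miR-21, 7.28, 7.39 and 6.68 after miR-34a and 5.67, 6.25 and 5.72 in miR-324 1, 2 and 4. The miR-21 arrays were the 3 highest, and scramble 3 was as low as the miR-324 arrays. Grik5, the GluK5 subunit that joins other kainate subunits, stood at 7.88, 8.37 and 7.47 in scramble, 8.54, 7.97 and 8.28 after miR-21, 8.03, 7.74 and 7.38 after miR-34a and 7.61, 7.52 and 8.51 in miR-324 1, 2 and 4. It varied by 1.16 in all, and each group overlapped the others. Grik4 lay between 5.62 and 7.43 and Grik2 between 4.57 and 6.27. For Grik2 and Grik1 alike, miR-34a 3 was the lowest array.

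Of the 6 NMDA receptor subunits 3 were expressed. Grin3b, a glycine-binding subunit, stood at 5.34, 5.58 and 5.77 in scramble, 5.19, 5.47 and 5.46 after miR-21, 5.36, 5.46 and 5.52 after miR-34a and 6.09, 5.19 and 5.68 in miR-324 1, 2 and 4. Grin2a, a glutamate-binding subunit, lay between 4.89 and 5.76 and Grin3a between 3.71 and 5.86, with scramble 3 the lowest for Grin3a. The other glutamate-binding subunits Grin2b, Grin2c and Grin2d were under 5 in every array. Grin2b, common in the brain, lay between 3.24 and 3.84, Grin2c between 3.48 and 4.48 and Grin2d between 3.04 and 4.42.

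Of the 6 metabotropic receptors Grm2, Grm4, Grm5 and Grm7 were expressed and Grm3 and Grm6 were not. Grm7 stood at 7.75, 8.25 and 6.86 in scramble, 7.30, 7.37 and 7.28 after miR-21, 7.94, 8.06 and 5.90 after miR-34a and 5.54, 7.49 and 7.14 in miR-324 1, 2 and 4. As for Gabra2, its 2 lowest arrays were miR-34a 3 and miR-324 1. Grm4, also of group III, lay between 5.69 and 7.10, and the group II receptor Grm2 between 4.66 and 5.51. Grm5, which acts through Gq proteins, passed 5 only in miR-21 2 (5.13). Grm3, the other group II receptor, lay between 2.39 and 3.07, and Grm6, the receptor of retinal bipolar cells, between 3.44 and 4.28.

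**Figure D2:**
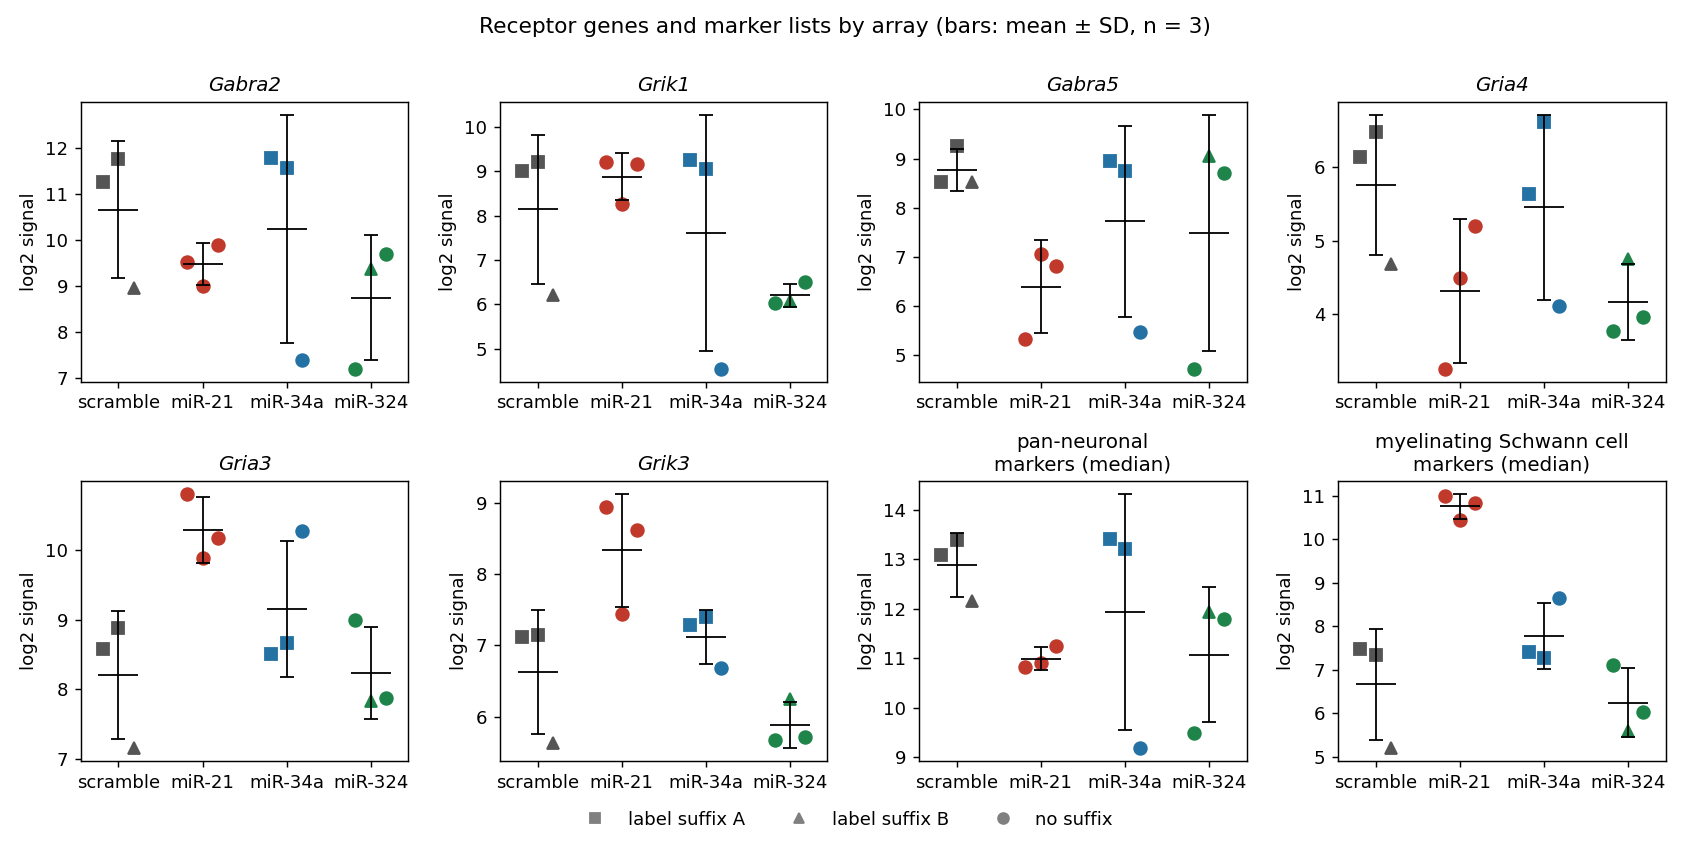
Log2 signal by array of 6 receptor genes, with the median of the pan-neuronal and of the Schwann cell markers; bars are the mean ± SD of 3 arrays and symbols give the label suffix. Gabra2 and Gabra5 are low in miR-34a 3 and miR-324 1, where the pan-neuronal median is lowest, and Gria3 is high in miR-34a 3 and the miR-21 arrays, where the Schwann cell median is highest.

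For 37 of the 39 genes (94.9%) the widest range of the 3 arrays of a group exceeded the largest difference between a miRNA mean and the scramble mean, against 92.8% of all genes. The exceptions among the members were Gria3 and Grik3. In the comparisons, group means were fitted over all 12 arrays, adjusted p-values run over all 19572 probes with a symbol, and differences are on the log2 scale with their standard error (SE) from that fit.

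After miR-21 none of the 39 genes passed an adjusted p of 0.05 in limma, against 1.04% of all probes tested. That share rested on every array: 204 probes were called, and 11 to 81 when any 1 array of either group was omitted. Gria3 had the lowest adjusted p, at 10.28 ± 0.47 against 8.21 ± 0.92 in scramble (SD, n = 3), a difference of 2.08 ± 0.54 (SE; adjusted p = 0.088). That is a 4.22-fold higher mean signal, and the 3 miR-21 arrays lay above the 3 scramble arrays. Grik3 stood at 8.33 ± 0.79 against 6.63 ± 0.86, a difference of 1.71 ± 0.45 (adjusted p = 0.092), again without overlap. Gabra5 had the lowest difference, at 6.40 ± 0.94 against 8.77 ± 0.42, or -2.37 ± 1.09 (adjusted p = 0.30), and its 3 miR-21 arrays lay below scramble. Gria4 and Gabra2 differed by -1.44 ± 0.66 and -1.18 ± 1.08 (adjusted p = 0.30 and 0.61) and overlapped scramble. Grik1 differed by 0.74 ± 1.07 (adjusted p = 0.76), and by -0.23 without scramble 3.

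Unadjusted p was under 0.05 for 7 of the 39 genes, which were Gria3, Grik3, Gabra5, Gria4, Gabrb2, Gabrr1 and Gabrr2, against 16.6% of all probes. Groups did not overlap for 8 genes (20.5%), 4 higher and 4 lower after miR-21, against 25.6% of all probes, 16.9% higher and 8.75% lower. The members' median difference was 0.00, against 0.13 over all probes. Besides Gria3, Grik3 and Gabra5 these 8 were Gabrr1, Gabra6, Grid2ip, Gabrb1 and Gabrg1, with differences of 0.80, 0.27, -0.22, -0.24 and -0.42. Of these Gabrr1 stood at 4.24, 5.08 and 4.61 after miR-21 and 3.81, 3.69 and 4.03 in scramble. Gabra6, an alpha subunit of cerebellar granule cells, stood at 3.14, 3.05 and 3.22 against 2.99, 2.98 and 2.64. Grid2ip stood at 3.84, 4.07 and 4.07 against 4.23, 4.10 and 4.32, and Gabrb1 at 4.24, 4.58 and 4.52 against 4.68, 4.64 and 4.74. All but 1 of the values of these 4 genes, that of Gabrr1 in miR-21 2, were under 5.

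The count of called genes depended on the fit. It was 4 with array weights (Gria3, Grik3, Gabra5 and Gria4; adjusted p = 0.0048, 0.0072, 0.028 and 0.028, against highest values of 0.54, 0.26, 0.90 and 0.93 among the other fits), where 12.2% of all probes were called. When only the miR-21 and scramble arrays were fitted it was 2 (Gria3 and Gabra5; adjusted p = 0.035 and 0.022), against 4.63% of all probes. With the suffix in the labels as a fixed block it was 3, the kainate subunits Grik1, Grik2 and Grik3, against 3.49% of all probes, and Gabra5, Gria4 and Gabra2 then had differences above 0 (0.59, 0.24 and 1.89). No miR-21 array carries a suffix and every scramble array does, so suffix and miRNA cannot be told apart in a direct comparison. With the pan-neuronal median as a covariate Grik3 alone passed (2.11, adjusted p = 0.034), against 2.1% of all probes. In that fit Gria3 and Gabra5 differed by 1.45 and -0.44 (adjusted p = 0.19 and 0.81), and Gabra2 differed by 0.87. Schwann cell markers also differed between the 2 groups, with a median of at least 10.44 in each miR-21 array and at most 7.47 in each scramble array. Their part in the differences of Gria3 and Grik3 was not tested. Eif2s3y, a gene of the Y chromosome, read 7.09 or more in each miR-21 array and 2.93 or less in each scramble array. What it marks and the miRNA cannot be told apart in this comparison. In miR-34a 3 the Schwann cell median was 8.66, Eif2s3y 8.53, Gria3 10.27 and Grik3 6.68. In miR-34a 1 and 2 Gria3 stood at 8.51 and 8.66 and Grik3 at 7.28 and 7.39. Without 1 array the difference of Gria3 ran from 1.55 to 2.41 (adjusted p = 0.11 to 0.25) and that of Grik3 from 1.21 to 2.15 (adjusted p = 0.084 to 0.26).

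After miR-34a none of the 39 genes was called in limma, and 0.0% of all probes were. Gabra5 had the lowest difference, -1.05 ± 1.09 (7.72 ± 1.95 against 8.77 ± 0.42, SD, n = 3; adjusted p = 1.0), and Gria3 the highest, 0.94 ± 0.54 (adjusted p = 1.0). Without miR-34a 3 that of Gabra5 was 0.08 and that of Gria3 0.38. Unadjusted p was under 0.05 for 1 gene, Gabrr1 (1.46% of all probes). Groups did not overlap for 2 genes (5.1%), 1 higher and 1 lower, against 5.8% of all probes, 3.49% higher and 2.31% lower. These were Gabrr1, at 4.12, 4.68 and 4.86 (difference 0.71), and the rho subunit Gabrr3, at 3.84, 3.88 and 3.56 against 3.90, 3.89 and 3.92 in scramble (-0.14). The members' median difference was -0.07, against 0.04 over all probes.

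After miR-324 none of the 39 genes was called in limma either, and 0.0% of all probes were. Without scramble 3 the members called were still 0, but 383 probes (1.96%) were called. The lowest differences were those of Grik1 and Gabra2, -1.93 ± 1.07 and -1.91 ± 1.08 (6.21 ± 0.26 against 8.14 ± 1.67 and 8.75 ± 1.35 against 10.66 ± 1.49, SD, n = 3; adjusted p = 0.40 and 0.41). Scramble 3 was as low as the miR-324 arrays for Grik1, and the groups overlapped for both. With the pan-neuronal median as a covariate in limma, Grik1 and Gabra2 differed by -0.23 and 0.06 (adjusted p = 0.96 and 0.99). That median was 9.49 to 11.94 in the miR-324 arrays and 12.15 to 13.39 in scramble. Prl was at least 14.26 in each miR-324 array and in scramble 3, and at most 4.83 in scramble 1 and 2. A part of other cells in these differences was not tested. Gria4 differed by -1.59 ± 0.66 (adjusted p = 0.32) and was the 1 gene with an unadjusted p under 0.05 (14.7% of all probes). Gabra5 differed by -1.28 ± 1.09 (adjusted p = 0.58), and by 0.11 without miR-324 1. The 5 kainate subunits differed by -1.93 to -0.03, with a median of -0.64, and for Grik1, Grik2 and Grik3 scramble 3 was itself more than 2-fold under scramble 1 and 2.

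Groups did not overlap between miR-324 and scramble for 7 genes (17.9%), 4 higher and 3 lower, against 19.9% of all probes, 12.6% higher and 7.3% lower. The lower ones were Grm2 (-0.46 ± 0.24, adjusted p = 0.38), Gabrg1 (-0.95 ± 0.51, adjusted p = 0.39) and Gabrb1 (-0.38 ± 0.22, adjusted p = 0.42). Grm2 stood at 4.95, 4.67 and 4.77 in miR-324 1, 2 and 4 and 5.27, 5.50 and 5.00 in scramble, and Gabrb1 at 3.93, 4.46 and 4.52. The higher ones were Gabra6, Grid2ip, Gabrd and Gabrr3, by 0.39, 0.28, 0.25 and 0.16, all under 5 in every array; that of Gabrr3 was -0.04 after a further quantile normalization. Gabra6 stood at 3.03, 3.01 and 3.73 in these arrays, Grid2ip at 4.48, 4.53 and 4.48, Gabrr3 at 4.00, 4.12 and 4.06, and Gabrd, a subunit of receptors outside synapses, at 3.03, 2.96 and 3.11 against 2.72, 2.91 and 2.72 in scramble. The members' median difference was -0.13, against 0.09 over all probes. With array weights 3 genes were called, against 13.2% of all probes, namely Gria4, Grik1 and Grik3 (Gria4 and Grik1 by -1.92 and -2.46, adjusted p = 0.033 and 0.023, against up to 0.99 and 0.96 in other fits). With a fixed block for the suffix Grik1, Gabra2 and Gabra5 had differences above 0 (0.71, 0.77 and 0.83; adjusted p = 0.96, 0.98 and 0.99).

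**Figure D3:**
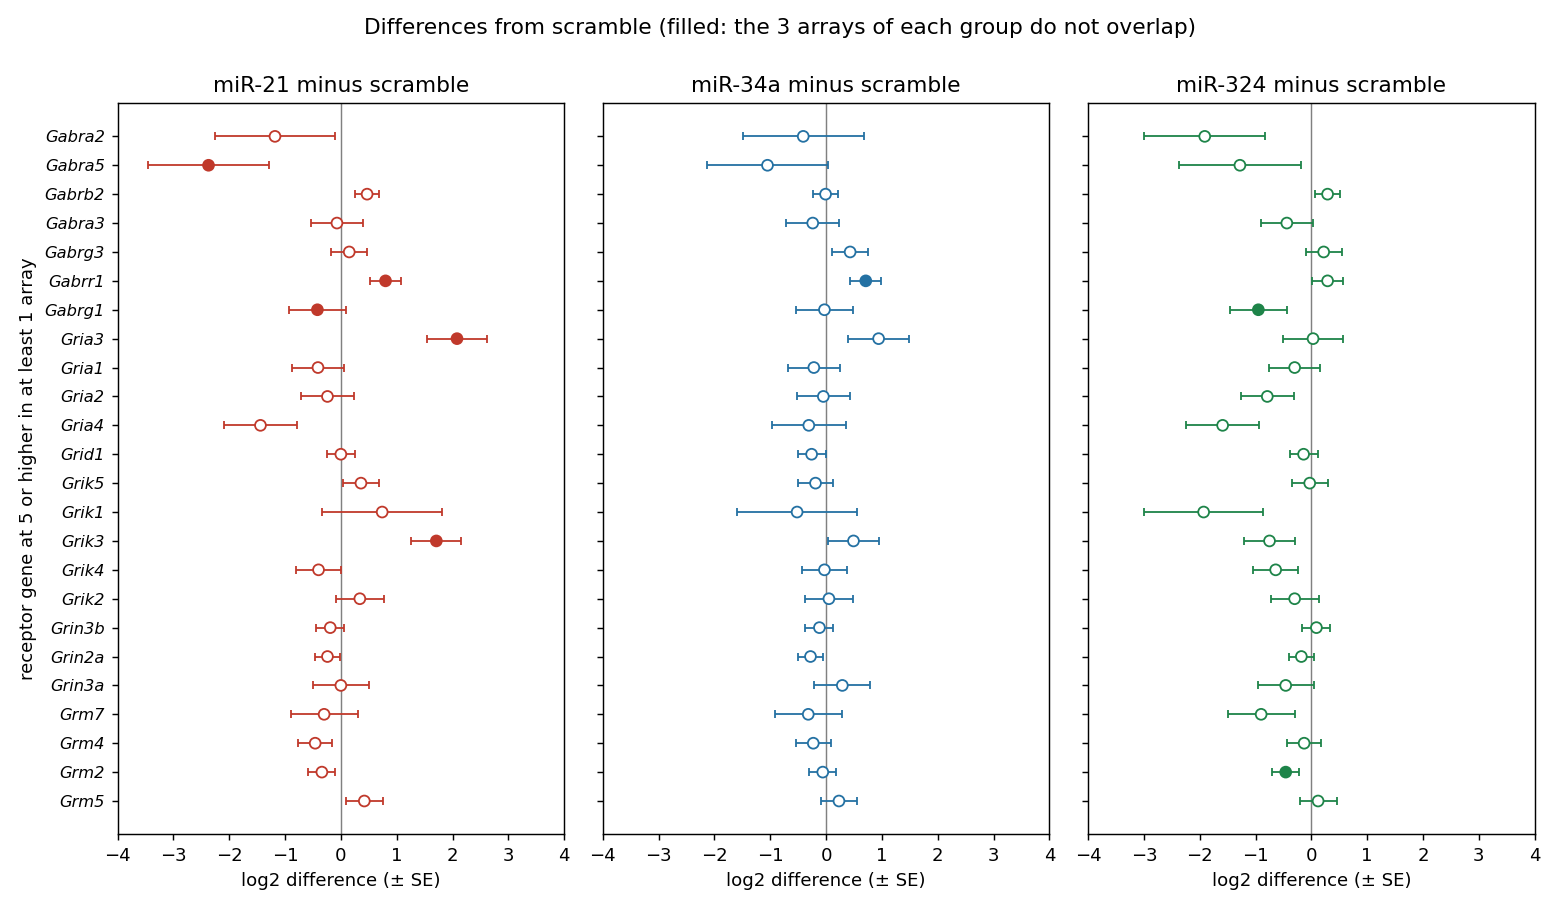
Log2 difference from scramble (± SE) of the 24 expressed genes in the 3 comparisons; filled points are genes whose 3 arrays do not overlap those of scramble. Gria3 and Grik3 lie highest and Gabra5 lowest after miR-21, at 2.08, 1.71 and -2.37, and the 3 panels share the scramble arrays.

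Arrays that share a label suffix differed little in these genes. Between miR-34a 1 and 2 and scramble 1 and 2, all of suffix A, 0 of the 39 genes differed by 2-fold or more (0.308% of all genes), and the differences ran from -0.67 (Gabrq) to 0.66 (Gabrg1). Gabra2, Grik1, Gabra5 and Gria3 differed by 0.17, 0.04, -0.05 and -0.14. The adjusted p of each of these 4 genes was 1.0 in a limma fit of these arrays. In contrast miR-34a 3 differed from the mean of miR-34a 1 and 2 by 2-fold or more in 12 of the 39 genes (18.5% of all genes), with Grik1 at -4.60, Gabra2 at -4.29, Gabra5 at -3.37 and Gria3 at 1.68. Within suffix B, miR-324 2 differed from scramble 3 by 2-fold or more in 1 of the 39 genes, Grin2d at -1.16, which was under 5 in both (5.07% of all genes). Gabra2, Grik1, Gabra5 and Gria3 differed there by 0.40, -0.14, 0.53 and 0.68, with 1 array on each side and no test. Scramble 3 differed from scramble 1 and 2 by 2-fold or more in 10 of the 39 genes (12.5% of all genes), with Grik1 at -2.90 and Gabra2 at -2.54.

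**Figure D4:**
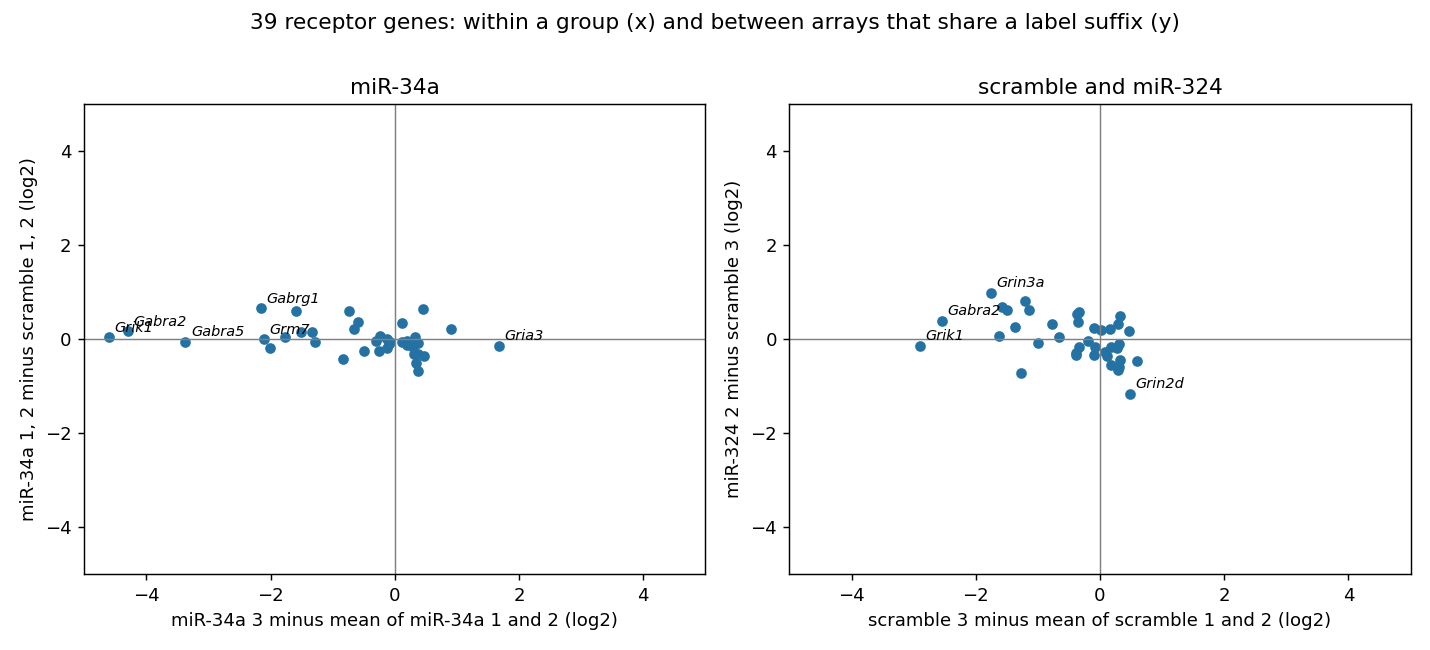
Log2 differences of the 39 genes within a group (horizontal) and between groups among arrays that share a label suffix (vertical), for suffix A (left) and suffix B (right), each point a gene. Grik1 and Gabra2 reach -4.60 and -4.29 within the miR-34a group and stay at 0.04 and 0.17 between miR-34a and scramble in suffix A.

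Genes that make, carry or anchor the 2 transmitters and their receptors were read from lists of 77, of which 69 were measured. In limma 1 of the 69 was called higher after miR-21 and 0 lower, against 1.04% of all probes called. Of the 69, 0 were called after miR-34a or miR-324, against 0.0% of all probes in each. Unadjusted p was under 0.05 for 15, 0 and 14 of them, against 16.6%, 1.46% and 14.7% of all probes. The gene called higher was Shank2, a scaffold of glutamate synapses, at 6.95, 6.58 and 6.59 after miR-21 and 4.95, 5.13 and 5.03 in scramble. Its difference was 1.67 ± 0.31 (SE; adjusted p = 0.028), and it did not pass when any single array of either group was left out (6 fits, difference 1.55 to 1.73, adjusted p = 0.066 to 0.13) or with the suffix as a random block (1.71, adjusted p = 0.068). The difference thus kept its size in those fits, in which 11 to 81 of all probes passed in the first 6 and 34 in the last. No miR-21 array carries a label suffix and every scramble array does, so suffix and miRNA cannot be told apart. Eif2s3y and the median of the Schwann cell markers also did not overlap between these groups. Their part in the difference of Shank2 was not tested. Shank2 stood at 5.35, 5.31 and 4.47 after miR-34a and 4.97, 4.33 and 5.39 in miR-324 1, 2 and 4. Shank3, of the same family, stood at 6.98, 7.48 and 6.92 in miR-324 1, 2 and 4 and 4.78, 5.05 and 5.45 in scramble, a difference of 2.03 ± 0.39 (adjusted p = 0.31). It passed without scramble 3 (2.21, adjusted p = 0.042) and not without any other single array (adjusted p = 0.30 to 0.67). After miR-21 Shank3 stood at 5.11, 4.48 and 4.73, and after miR-34a at 4.68, 4.71 and 6.24. The endothelial marker median was 12.15 to 13.95 in the miR-324 arrays and 13.29 in miR-34a 3. It was 9.59 to 11.92 in scramble and 9.69 to 10.01 after miR-21. A part of endothelial cells in the difference of Shank3 was not tested.

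Some genes of these lists were under or near 5 throughout and others far above it. The GABA-synthesising enzymes Gad1 and Gad2 lay between 3.15 and 4.58 and between 4.60 and 5.40 and the vesicular GABA carrier Slc32a1 between 3.31 and 4.13. The vesicular glutamate carrier Slc17a6 stood at 12.25, 12.84 and 12.59 in scramble, 9.89, 9.91 and 10.86 after miR-21, 12.84, 12.57 and 9.51 after miR-34a and 9.38, 12.20 and 12.26 in miR-324 1, 2 and 4. It was low in the same 5 arrays as Gabra5. The GABA-B receptor genes Gabbr1 and Gabbr2 lay between 10.21 and 13.21 and between 9.23 and 13.82. The chloride importer Slc12a2, which keeps chloride high in sensory neurons, lay between 10.57 and 12.20, and the exporter Slc12a5 between 3.50 and 5.34. Gephyrin (Gphn), which anchors GABA-A receptors, lay between 8.61 and 9.40. The median difference of the 69 genes was -0.15 after miR-21, -0.12 after miR-34a and -0.11 after miR-324, against 0.13, 0.04 and 0.09 over all probes. Groups did not overlap for 34.8%, 2.9% and 26.1% of the 69, against 25.6%, 5.8% and 19.9% of all probes. After miR-21 7 of the 69 were higher and 17 lower, against 16.9% and 8.75% of all probes. After miR-34a these were 0 and 2, against 3.49% and 2.31%, and after miR-324 6 and 12, against 12.6% and 7.3%.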

How the data were processed

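Transcript levels of cultured mouse trigeminal neurons were measured on 12 Clariom S Mouse arrays (4 groups of 3). The authors deposited log2 signals, 1 value per probe and array. The submitters' processing notes name Transcriptome Analysis Console 4.0 with RMA (robust multi-array averaging), which equalises the arrays' distributions, so changes in total signal are lost and low signals understate differences. Array medians were 5.91 to 6.06, and the number of arrays limits the precision. The platform table gave 1 gene symbol to 19572 of the 22206 probes and left 2634 without a name here. The RefSeq table held every one of the 39 member genes; some other genes of these families are not reported here.

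Group means were fitted with limma 3.58.1 in R 4.3.3 (lmFit, eBayes, 8 residual degrees of freedom; two-sided, Benjamini-Hochberg over the 19572 probes, called under 0.05), tested on simulated data. Named genes were the brightest probe of each receptor class, those past the threshold and, per comparison and direction, up to 4 non-overlapping genes with the smallest p; other members are added as levels. Grik1, Gria4, Shank3, Gabrb2, Gabrr2 and the levels of handling genes were picked after their values were seen. The members, lists and rules were chosen with earlier results of these data known. Array numbers are those of the labels, except that the label of scramble 3 repeats the number 1 under its own suffix. Same-numbered arrays of miR-34a and scramble deviated together (3 pairs, correlations 0.31 to 0.47). The number of scramble 3 was given here, and it shares no suffix with miR-34a 3. Both arrays stood apart from the others of their groups, so these correlations cannot show that the numbers pair the samples. Arrays 1 and 2 of both groups also share suffix A, and the block on the number gave 0 calls for miR-34a too. Alternatives were another normalization, filter, variance prior, weights, blocks, a pan-neuronal covariate and leaving out single arrays.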

Additional observations from a re-analysis of the deposited data

How the results depend on the processing

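For the receptor genes the count of calls was 0 in each of the 3 comparisons under quantile normalization again and median centring. It was also 0 with the brighter probes only (9 of the 39 genes remained), a trended prior and the replicate block. The same held with the suffix as a random block and in every fit without 1 array. With the mean of all probes it was 0 too, but each of these genes has 1 probe, so its values could not change. The exceptions were 4 (miR-21) and 3 (miR-324) with array weights, 2 with only the groups compared, 3 with the fixed suffix block and 1 with the pan-neuronal covariate, the last 3 for miR-21. Over all 19572 probes the same fits called 2390, 2589, 906, 684 and 411. For the handling genes after miR-21 the count of 1 became 0 among the brighter probes, which leave out Shank2, 0 with the random block, 15 with array weights, 5 with only the groups compared, 3 with the fixed block and 2 with the covariate, and was 0 in all 6 fits without 1 array. After miR-324 it was 16 with array weights and 0 to 1 without 1 array (1 without scramble 3). Of the receptor genes 24 were expressed, 15 with a limit of 6, 34 with a limit of 4, 20 with at least 3 arrays at 5, and 22 to 24 without 1 array. With the number in the label as a replicate block the difference of Gabra5 after miR-21 was -2.37, as in the main fit. Both groups hold the same numbers, so this block cannot change a difference between them, only its p-value. The block drops miR-324 4, whose number no other array has. Same-numbered arrays of miR-21 and scramble deviated at correlations of -0.21 to 0.07 (3 pairs) and those of miR-324 and scramble at 0.02 and 0.05 (2 pairs). So few pairs, in which the number of scramble 3 was given here, cannot show whether the numbers pair these samples. The block changed no call of a receptor gene, and moved the calls over all probes after miR-21 from 204 to 129.

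Signs turned in 20 refits of single genes and held in 454 others that also kept their side of the threshold. With the suffix as a fixed block these were Gabra2 (1.89), Gabra5 (0.59), Gria4 (0.24), Gabra6 (-0.07) and Gabrg1 (1.17) after miR-21, and Gabra2 (0.77), Gabra5 (0.83), Grik1 (0.71) and Gabrg1 (0.22) after miR-324. With it as a random block they were Gabra2 (0.17) and Gabrg1 (0.28) after miR-21. With the pan-neuronal covariate they were Gabra2 (0.87) and Gabrg1 (0.42) after miR-21, and Gabra2 (0.06) and Gabra5 (0.57) after miR-324. Within suffix A Gria3 stood at -0.14 for miR-34a, and with quantile normalization again Gabrr3 at -0.04 for miR-324. Without 1 array Grik1 after miR-21 ran from -0.23 to 1.27, Gabra5 after miR-34a from -1.66 to 0.08 and Gabra5 after miR-324 from -2.06 to 0.11. None of these was called, and the cause was not tested. Within suffix B a single array stood on each side, so no count could be made there. The lowest signals limit the comparisons: 15 of the 39 genes were under 5 in every array.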

Other observations

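Gabra5 was low where the Y-linked gene Eif2s3y was high, except in miR-324 4. Gabra5 read 5.32, 7.05 and 6.82 after miR-21, where Eif2s3y read 7.26, 7.09 and 7.85. It was 5.47 in miR-34a 3 and 4.72 in miR-324 1, with Eif2s3y at 8.53 and 7.88 there. In miR-324 4 the values were 8.70 (Gabra5) and 5.13 (Eif2s3y), and the 6 remaining arrays had Gabra5 between 8.52 and 9.25 and Eif2s3y between 2.13 and 2.96. Grik1 and Grik3 were low in the arrays that held the transcript of prolactin (Prl, a hormone of the pituitary). Scramble 3 had 14.92 for Prl, 6.21 for Grik1 and 5.63 for Grik3. The miR-324 arrays had 14.26 to 15.17 for Prl, 6.04 to 6.51 for Grik1 and 5.67 to 6.25 for Grik3. On the other 8 arrays Prl was 4.83 at most, Grik3 lay between 6.68 and 8.94, and Grik1 between 8.26 and 9.25 apart from 4.55 in miR-34a 3. These genes were set side by side after their values were seen, and no test was made.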
